A study of Mus musculus with 12 samples.

Results

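The 10 genes described here encode the mouse synaptonemal complex and the HORMA domain proteins of the meiotic chromosome axis, and were taken by symbol from a deposited table of 12516 genes. They are Sycp1, Sycp2, Sycp3, Syce1, Syce2, Syce3, Tex12, Hormad1, Hormad2 and Trip13, and all 10 were listed. RNA was sequenced from Oct4-positive germ cells sorted from 12 single female embryos at embryonic day 13.5, all Gulo-/- (strain, C57BL/6 background). Without Gulo, which encodes the enzyme that completes vitamin C synthesis, the colony depends on vitamin C from the diet. The mothers of 6 embryos (supplied) received physiological vitamin C and those of the other 6 (withdrawn) had it removed during the first 2 weeks of gestation, so both groups lack Gulo and differ in diet alone as far as the labels say. Values are normalized log2 expression, and differences are given as withdrawn minus supplied. A difference of 1 is read here as a doubling, also in fold and linear values, though how the scale was made is not given.

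In meiotic prophase each pair of sister chromatids is organised along a protein axis, and the axes of homologous chromosomes are joined along their length by the synaptonemal complex. SYCP2 and SYCP3 form the axial (later lateral) elements, SYCP1 forms the transverse filaments that bridge them, and SYCE1, SYCE2, SYCE3 and TEX12 form the central element in the middle. HORMAD1 and HORMAD2 sit on unsynapsed axes, where HORMAD1 promotes DNA break formation and both act in checkpoint signalling. The ATPase TRIP13 removes both HORMA proteins as synapsis proceeds. In the mouse, female germ cells begin to enter meiosis at about the age sampled here, and transcripts of these genes accumulate before the complex is assembled.

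Sycp1 was the gene with the smallest p of all 12432 genes tested, and its difference was the fourth most negative. Of the 10 genes, 5 fell in withdrawn embryos (Sycp1, Sycp2, Syce1, Tex12 and Hormad1) and 0 rose, beside a background of 7.75% of all genes tested called lower and 6.22% called higher. The fall of Sycp1 was 2.34-fold, whereas those of the other 4 genes lay between 1.21-fold and 1.39-fold. Sycp3, Syce3 and Hormad2 had negative differences that did not pass, and Syce2 and Trip13 had positive ones that did not pass. The median difference of the 10 genes was -0.27, against -0.01 for all genes tested. Calls were made with limma at an adjusted p below 0.05 over all genes tested. With embryos of the same diet and title number (a number in the sample titles) linked by a random effect (estimated correlation 0.267), Sycp1 and Sycp2 were called and Syce1 (limma adjusted p = 0.050), Tex12 (0.104) and Hormad1 (0.0914) were not, and with such embryos averaged Sycp1 alone was called. In bulk RNA, fewer germ cells expressing a gene and less RNA per cell cannot be told apart.

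**Figure D1:**
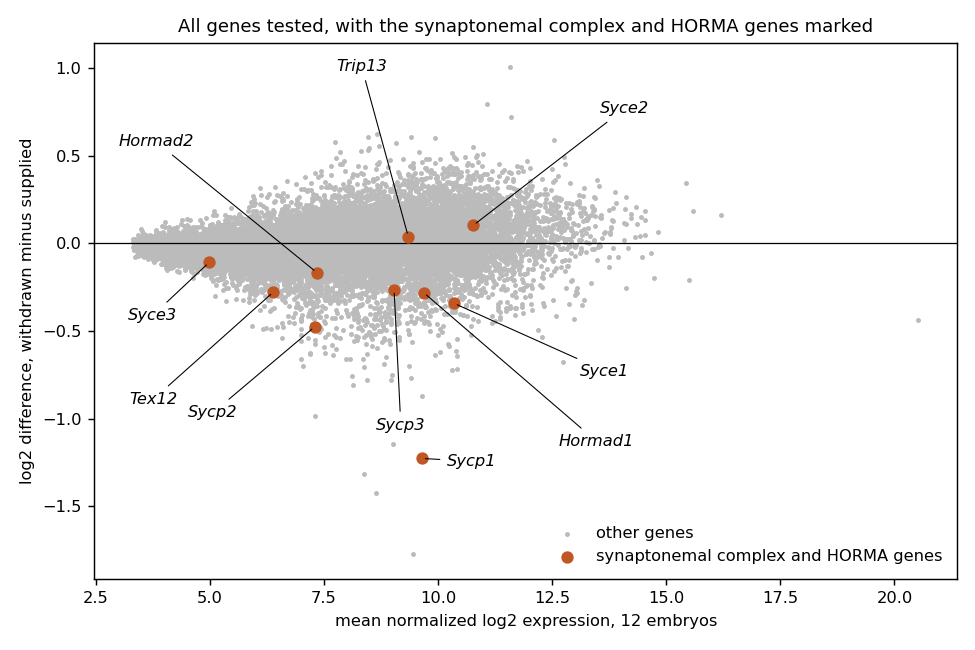
Mean normalized log2 expression over the 12 embryos (horizontal) against the log2 difference between withdrawn and supplied embryos (vertical) for the 12432 genes tested (grey points), with the 10 synaptonemal complex and HORMA genes in orange. Sycp1 lies at -1.23, apart from the other 9, which lie between -0.48 and 0.10.

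The transverse filament gene Sycp1 ranged from 9.71 to 10.76 with a median of 10.28 in supplied embryos, and from 8.69 to 9.39 with a median of 9.04 in withdrawn embryos. Every withdrawn embryo lay below every supplied embryo, and Sycp1 was the only one of the 10 genes whose groups did not overlap, which was so in the same direction for 2.34% of all genes tested and in the opposite direction for 2.15%. Its log2 difference was -1.23 (SE 0.13, 95% interval -1.50 to -0.96, limma adjusted p = 3.81e-05). The listed pseudogene Sycp1-ps1, a copy with which reads may be shared, also did not overlap between groups (means 8.03 ± 0.22 and 7.39 ± 0.13, SD, n = 6 each), with a log2 difference of -0.64 (SE 0.09, limma adjusted p = 0.000852). With the linear values of both copies added, an alternative chosen after seeing the data, the log2 difference was -1.10 (SE 0.12, limma adjusted p = 6e-05).

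The lateral element genes differed in how far they moved. Sycp2 ranged from 7.02 to 7.93 (median 7.56) in supplied and from 6.92 to 7.23 (median 7.06) in withdrawn embryos. Of the supplied embryos, 5 lay above all withdrawn ones, and supplied replicate 4 lay within the withdrawn range. The log2 difference of Sycp2 was -0.48 (SE 0.11, limma adjusted p = 0.00867). Sycp3, whose product builds the axis together with SYCP2, ranged from 8.72 to 9.60 (median 9.20) in supplied and from 8.69 to 9.22 (median 8.88) in withdrawn embryos. Only 3 supplied embryos lay above all withdrawn ones. The log2 difference of Sycp3 was -0.26 (95% interval -0.49 to -0.03) with a limma adjusted p of 0.113, and it passed without supplied replicate 4 (-0.35, limma adjusted p = 0.0169).

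Of the central element genes, Syce1 and Tex12 fell and Syce2 and Syce3 did not pass. Syce1, whose product links SYCP1 to the central element, ranged from 10.30 to 10.96 (median 10.44) in supplied and from 10.01 to 10.47 (median 10.12) in withdrawn embryos. Withdrawn replicate 6 was the highest of its group, within the supplied range, and the other 5 withdrawn embryos lay below all supplied ones. The log2 difference of Syce1 was -0.34 (SE 0.10, limma adjusted p = 0.0277). Tex12, whose product assembles with SYCE2 into the fibres of the central element, ranged from 6.20 to 6.87 (median 6.55) in supplied and from 6.01 to 6.40 (median 6.29) in withdrawn embryos. The groups overlapped, with 4 supplied embryos above all withdrawn ones, and the log2 difference of Tex12 was -0.28 (SE 0.09, limma adjusted p = 0.0386).

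Syce2, the partner of Tex12, was among the genes of this set that did not fall. It ranged from 10.56 to 10.93 (median 10.73) in supplied and from 10.71 to 11.01 (median 10.80) in withdrawn embryos, and 1 of 6 withdrawn embryos lay below the supplied mean. Its log2 difference was 0.10 with a 95% interval of -0.05 to 0.25 (limma adjusted p = 0.365). Syce3, a small protein needed to load the central element, had the lowest values of the set, from 4.91 to 5.13 (median 5.05) in supplied and from 4.85 to 4.99 (median 4.93) in withdrawn embryos. All 6 withdrawn embryos lay below the supplied mean, and its log2 difference was -0.11 with a 95% interval of -0.20 to -0.02 (limma adjusted p = 0.0965, and 0.0486 without supplied replicate 1). Genes with mean values of 4 to 6, as Syce3 has, had a median SD between embryos of 1 diet of 0.08 (2265 genes), and those of 8 to 10 had one of 0.13 (3877 genes). Whether the deposited scale compresses differences of such low genes was not tested. A further central element gene outside the set, Six6os1, listed under an older clone name, had means of 9.33 ± 0.28 and 9.11 ± 0.13 (SD, n = 6 each) and a log2 difference of -0.21 that did not pass (limma adjusted p = 0.154).

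The HORMA genes had negative differences, and 1 of them passed. Hormad1 ranged from 9.46 to 10.04 (median 9.87) in supplied and from 9.28 to 9.73 (median 9.57) in withdrawn embryos, with 5 supplied embryos above all withdrawn ones. Its log2 difference was -0.28 (SE 0.09, limma adjusted p = 0.0407). Hormad2 ranged from 7.28 to 7.64 (median 7.41) in supplied and from 7.17 to 7.44 (median 7.24) in withdrawn embryos. Withdrawn replicate 3 lay inside the supplied range and the other 5 withdrawn embryos below it, and the log2 difference was -0.17 with a 95% interval of -0.31 to -0.02 (limma adjusted p = 0.111). Trip13, which also acts on the spindle checkpoint of dividing cells, ranged from 9.26 to 9.46 (median 9.31) in supplied and from 8.97 to 9.55 (median 9.44) in withdrawn embryos. Withdrawn replicate 5 lay below all supplied embryos and 4 of 6 withdrawn embryos lay above the supplied mean, and the log2 difference was 0.04 with a 95% interval of -0.13 to 0.21 (limma adjusted p = 0.797).

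**Figure D2:**
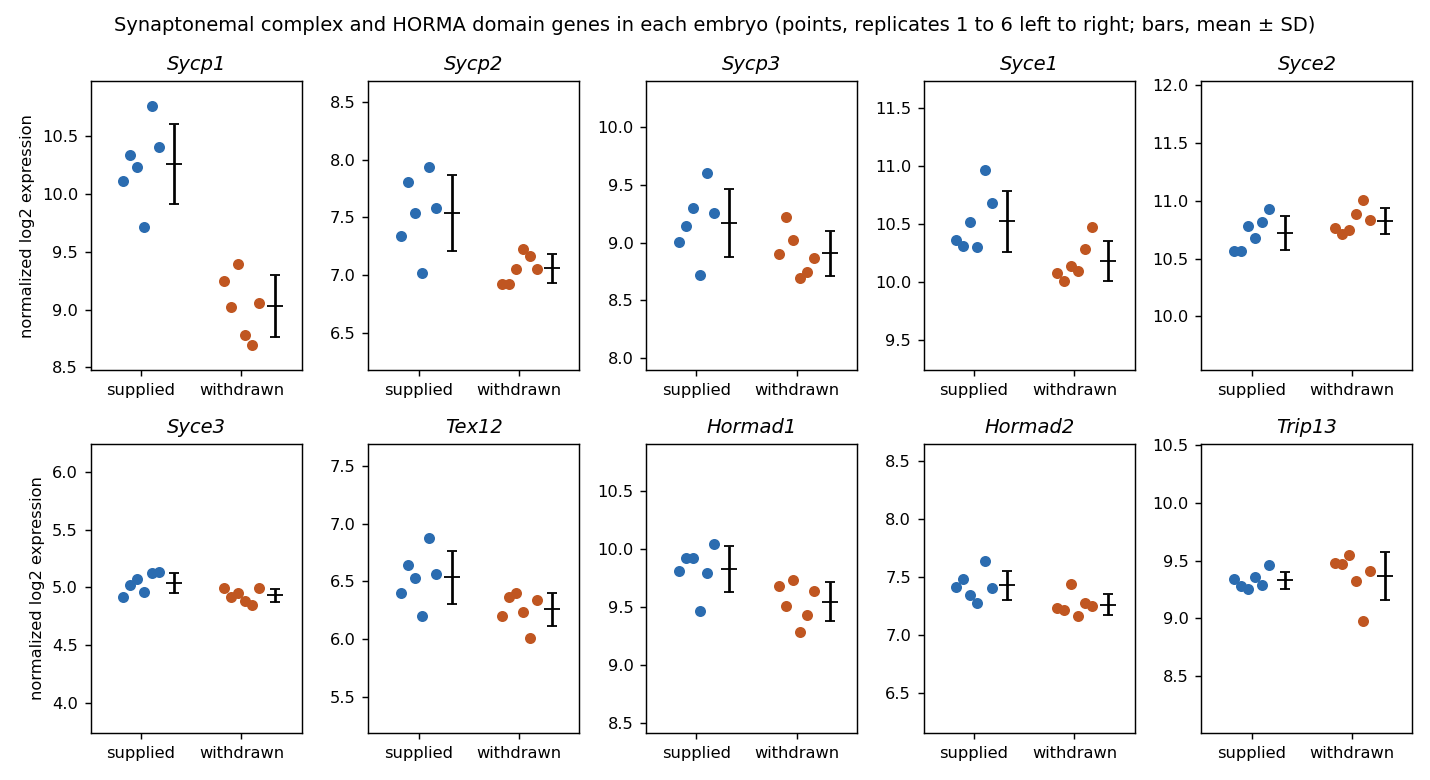
Normalized log2 expression (vertical, the same span of 2.5 in every panel) of each gene in the 6 supplied (blue) and 6 withdrawn (orange) embryos, with mean and SD in black. Sycp1 is the only panel in which the groups do not overlap, from 9.71 upwards in supplied and up to 9.39 in withdrawn embryos.

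**Figure D3:**
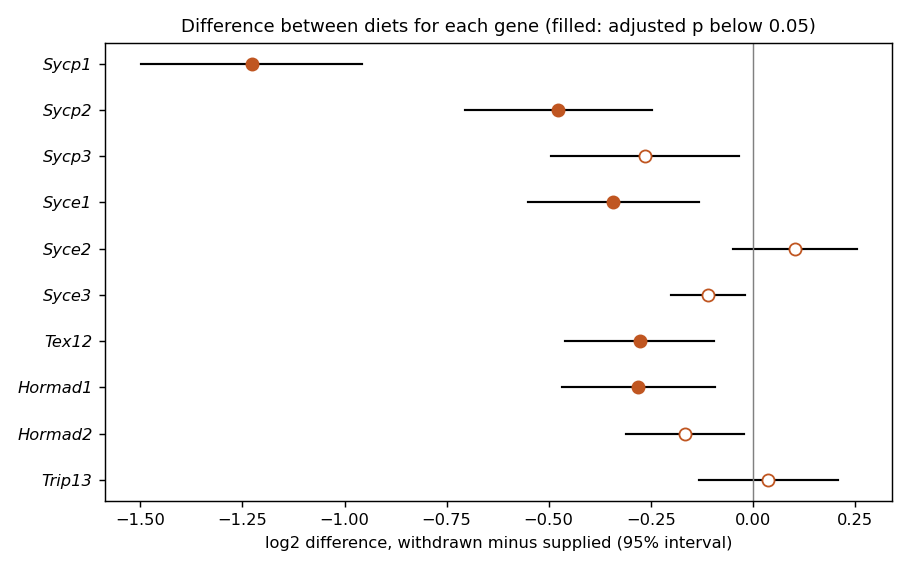
Log2 difference between withdrawn and supplied embryos with its 95% interval from the limma fit (horizontal) for each gene (vertical), filled where the adjusted p is below 0.05. The interval of Sycp1, -1.50 to -0.96, does not reach that of any other gene, and those of Syce2 and Trip13 span 0.

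The calls of Syce1, Tex12 and Hormad1 were each lost on leaving out any 1 of several embryos of both diets, and those of Sycp1 and Sycp2 were kept. Sycp1 and Sycp2 were called in all 12 fits that left out 1 embryo, with limma adjusted p values up to 0.000352 and 0.0263. The call of Syce1 was lost without supplied replicate 3, 5 or 6 or withdrawn replicate 1, 2 or 4 (limma adjusted p up to 0.0778). That of Tex12 was lost without supplied replicate 2, 3, 5 or 6 or withdrawn replicate 1, 4, 5 or 6 (limma adjusted p up to 0.111). That of Hormad1 was lost without supplied replicate 1, 2, 3, 5 or 6 or withdrawn replicate 2, 4, 5 or 6 (limma adjusted p up to 0.105). None of these fits changed the direction of the 5 called genes.

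The embryos' titles hold 1 of the numbers 1 to 4, each used for both diets, and the labels do not say whether embryos sharing a number and diet are littermates. The Sycp1 difference was -1.09 within title number 1, -0.84 within number 2, -0.93 within number 3 and -1.70 within number 4. Syce1 and Hormad1 were likewise negative within all 4 numbers, from -0.44 to -0.20 and from -0.38 to -0.18, as were Sycp3 (-0.62 to -0.02) and Syce3 (-0.21 to -0.02). Sycp2 was negative within 3 of 4 numbers and at 0.21 within number 3, and Tex12 within 3 of 4 and at 0.03 within number 3. Hormad2 was negative within 3 of 4 and at 0.09 within number 2. Across all genes, the deviations of the embryos sharing number 1 from their diet's mean correlated at r = 0.21 in both diets, and those sharing number 4 at 0.28 with supply and -0.16 after withdrawal. Each embryo is part of the mean it was set against, so unrelated embryos would on average give negative values. Numbers 2 and 3 hold 1 embryo of each diet, so their values have no replicate. Without the 4 embryos of number 4, Sycp1 was at -0.99 and still called (limma adjusted p = 0.00313), but Sycp2 (-0.39, limma adjusted p = 0.147), Syce1 (-0.29, 0.0737), Tex12 (-0.14, 0.409) and Hormad1 (-0.23, 0.305) were not. Without number 1, Sycp1 was also the only gene of the set called (-1.30, limma adjusted p = 0.00385).

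**Figure D4:**
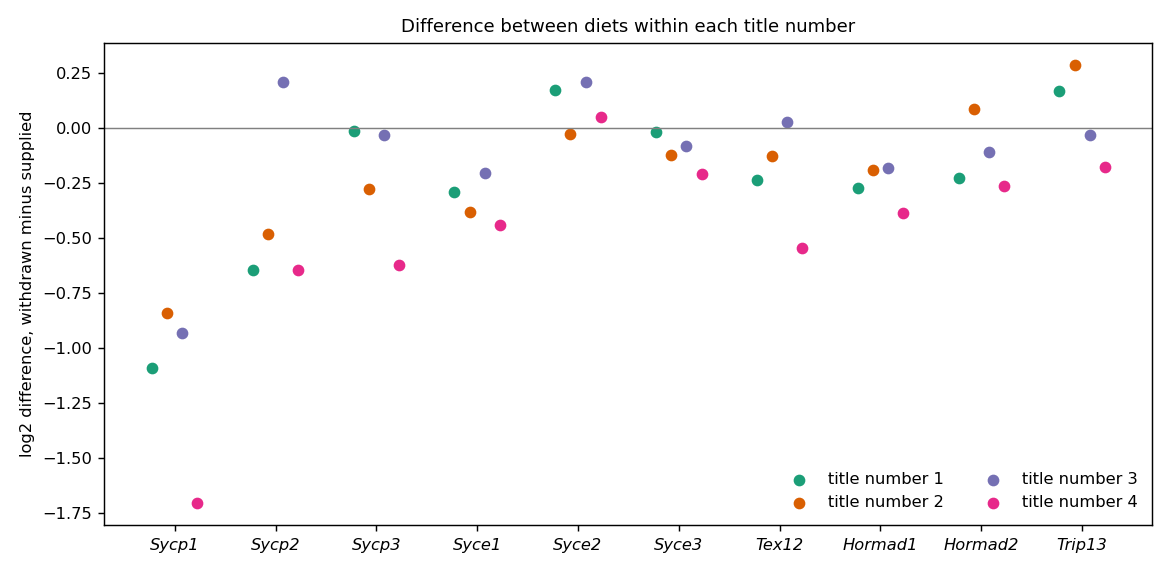
Log2 difference between withdrawn and supplied embryos (vertical) computed within each title number (colours) for each gene (horizontal). The 4 Sycp1 values lie between -1.70 and -0.84, and those of Sycp2, Syce2, Tex12, Hormad2 and Trip13 lie on both sides of 0.

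Embryos tended to keep their place across the genes. Supplied replicate 4 was the lowest supplied embryo for 7 of the 10 genes and lay on average 0.27 below the supplied means, whereas supplied replicate 5 was the highest for 6 genes and replicate 6 for the other 4. Among withdrawn embryos, replicate 3 was the highest for 5 genes and replicate 5 the lowest for 4. The meiotic entry gene Stra8, which is activated by retinoic acid, was at 8.66 in supplied replicate 4 and at 11.66 in supplied replicate 5, and between 9.86 and 10.92 in the other supplied embryos. In withdrawn embryos Stra8 was highest in replicate 3 (9.66) and lowest in replicate 5 (7.53). The germ cell gene Ddx4 was at 12.75 in supplied replicate 4 and between 12.94 and 13.24 in the other supplied embryos. The part of these differences between embryos in the result was not tested beyond the fits without each embryo.

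If the deposited values are plain log2 values, which is not given, a ratio of genes within an embryo is free of any single scaling factor of its library. Each of the other 9 genes was therefore subtracted from Sycp1 in the same embryo. The log2 ratio of Sycp1 to Sycp3 averaged 1.09 ± 0.11 (SD) over the 6 supplied embryos and 0.13 ± 0.22 over the 6 withdrawn ones, a change of -0.96 (exact two-sided permutation test, p = 0.00216, adjusted p = 0.00216). The ratio of Sycp1 to Sycp2 changed by -0.75, to Syce1 by -0.89, to Tex12 by -0.95 and to Hormad1 by -0.95. For all 9 genes the ratio was lower in withdrawn embryos with no overlap between the groups, and each exact permutation p was 0.00216, the smallest this design can give (adjusted p = 0.00216 over the 9 ratios). All 9 ratios share Sycp1, whose own groups did not overlap and whose difference was the largest of the set. They largely repeat that difference and are not 9 independent results. On the deposited scale the changes of the ratio ran from -0.75 against Sycp2 to -1.33 against Syce2, and that against the low gene Syce3 was -1.12. These calls held in all 16 fits that left out 1 embryo or 1 title number.

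Each gene was also set against Ddx4, which encodes a germ cell RNA helicase and which itself fell in withdrawn embryos (log2 difference -0.34, SE 0.11, limma adjusted p = 0.0362). Of 9 germ cell markers, 2 fell, Ddx4 among them, and 5 rose, such as Pou5f1 (0.45), beside 7.75% and 6.22% of all genes tested. Changes relative to Ddx4 therefore depend on that choice of marker, and ratios to the others were not tested. Relative to Ddx4, Sycp1 averaged -2.79 ± 0.27 (SD, n = 6) with supply and -3.67 ± 0.13 (n = 6) after withdrawal, a change of -0.88 with no overlap (exact permutation p = 0.00216, adjusted p = 0.0216 over the 10 genes). Trip13 moved the other way relative to Ddx4, from -3.72 ± 0.18 to -3.34 ± 0.12 with overlap, a change of 0.38 (exact permutation p = 0.00649, adjusted p = 0.0325). The log2 difference of Trip13 by itself was 0.04. The other 8 genes did not pass, and of the 5 called genes Sycp2 (-0.13), Syce1 (0.00), Tex12 (0.07) and Hormad1 (0.06) had changes relative to Ddx4 that were smaller than their own SD between embryos. Syce2 had a change of 0.45 relative to Ddx4 that did not pass (exact permutation p = 0.0390, adjusted p = 0.130). Without title number 2, which leaves 5 embryos a diet, the adjusted p of Sycp1 and of Trip13 relative to Ddx4 was 0.0794 in the exact permutation test, with changes of -0.88 and 0.41. Without number 1 or 4, which leaves 4 embryos a diet, Sycp1 changed by -0.92 and -0.80 (exact permutation test, adjusted p = 0.286 in both) and Trip13 by 0.35 and 0.34 (adjusted p = 0.286 and 0.429). At either size a single gene with the smallest possible p cannot pass after adjustment over the 10 genes.

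**Figure D5:**
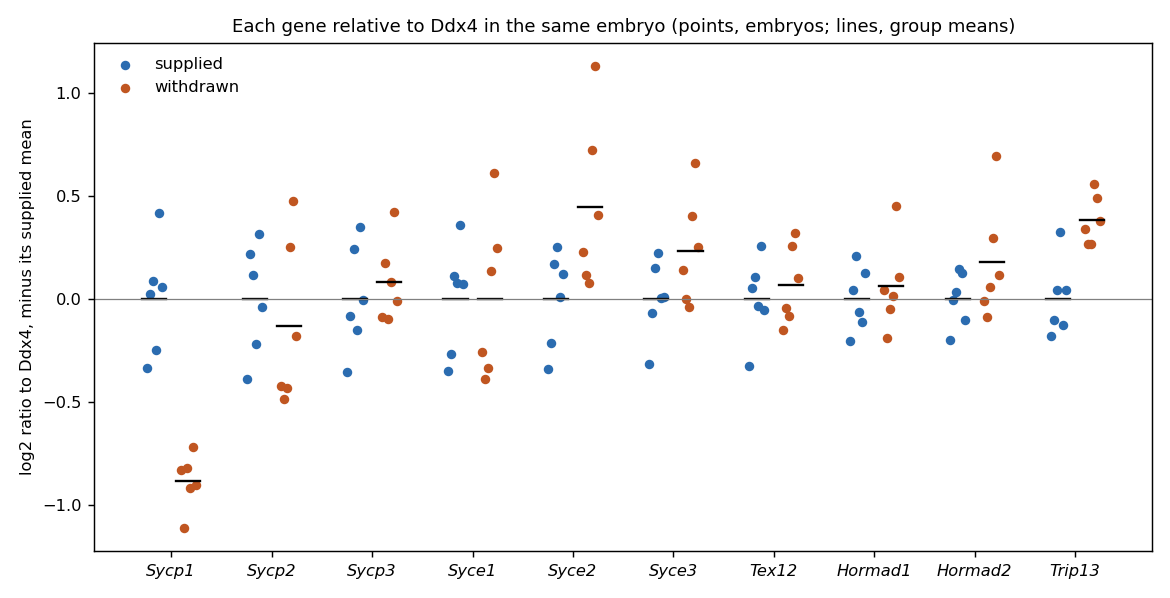
Log2 ratio of each gene to Ddx4 in the same embryo, minus the mean ratio of supplied embryos (vertical), for supplied (blue) and withdrawn (orange) embryos, with lines at group means. Sycp1 lies 0.88 lower in withdrawn embryos with no overlap, Trip13 lies 0.38 higher, and the other genes overlap around 0 except for Syce2, whose withdrawn mean is 0.45 higher.

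Levels of different genes were compared per kilobase of the longest coding transcript in GENCODE M21, as log2 values. How the deposited scale was made is not given, so the order, above all of low genes, may not follow abundance. Before this step Syce3, with a transcript of 0.48 kb, had a supplied mean of 5.04, below that of Sycp2 (7.54). In supplied embryos Syce1 (9.97 ± 0.26, SD, n = 6) and Syce2 (9.97 ± 0.15) were highest and did not differ beyond their spread. They were followed by Hormad1 (9.23 ± 0.20), Sycp3 (8.95 ± 0.30), Sycp1 (8.48 ± 0.35), Trip13 (7.56 ± 0.07), Tex12 (6.53 ± 0.23), Hormad2 (6.45 ± 0.12), Syce3 (6.10 ± 0.09) and Sycp2 (5.02 ± 0.33). The ranges of Hormad1, Sycp3 and Sycp1 all overlapped one another, and those of Tex12 and Hormad2 overlapped. In withdrawn embryos Syce2 (10.07 ± 0.11) stood above Syce1 (9.63 ± 0.17) with no overlap, and the mean of Sycp1 (7.25 ± 0.27) lay below that of Trip13 (7.60 ± 0.21), with overlapping ranges.

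Promoter sequences were examined because several of the genes fell together. The 250 bases before each RefSeq start (build GRCm38.p6, 13 windows for the 10 genes) were searched on both strands for CACGTG, the E-box that MAX and related factors recognise, and for GCGGGAA or its complement TTCCCGC, an E2F-type site. CACGTG reads the same on both strands, and it can share at most 1 base with the other motif. CACGTG was present for 5 genes, namely Sycp1, Sycp3, Syce2, Tex12 and Hormad1, and the E2F-type site for the same genes other than Sycp1. By window, 6 of the 13 held CACGTG and 5 the E2F-type site, and the 2 overlapping windows of Hormad1 are counted in both. CACGTG was held by 6.02% of all 32841 windows of that length, the E2F-type site by 3.82% and both by 0.338%. Among windows with 5 to 27 CpG dinucleotides, the range of the 10 genes, these shares were 8.38% for CACGTG and 5.62% for the E2F-type site. That range is not a close match, since 12 of the 13 windows lay above the median CpG count of all windows. CACGTG was found for 3 of the 5 genes that fell and for 2 of the 5 that were not called. The windows that hold a motif are printed 5′ to 3′ and end at the base before the start, with both motifs in capitals, and for Hormad1, with 2 starts, 1 window is shown.
Sycp1, chr3:102936101-102936350, minus strand: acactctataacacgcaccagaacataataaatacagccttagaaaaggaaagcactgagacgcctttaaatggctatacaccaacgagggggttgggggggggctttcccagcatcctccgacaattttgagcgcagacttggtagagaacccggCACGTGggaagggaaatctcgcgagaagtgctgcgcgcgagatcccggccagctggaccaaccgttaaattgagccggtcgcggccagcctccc
Sycp3, chr10:88459337-88459586, plus strand: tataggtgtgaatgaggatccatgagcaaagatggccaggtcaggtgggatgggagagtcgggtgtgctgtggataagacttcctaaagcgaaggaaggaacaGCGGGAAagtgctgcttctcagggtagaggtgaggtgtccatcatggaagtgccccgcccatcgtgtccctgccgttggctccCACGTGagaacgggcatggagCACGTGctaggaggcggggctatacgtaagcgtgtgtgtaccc
Tex12, chr9:50561269-50561518, minus strand: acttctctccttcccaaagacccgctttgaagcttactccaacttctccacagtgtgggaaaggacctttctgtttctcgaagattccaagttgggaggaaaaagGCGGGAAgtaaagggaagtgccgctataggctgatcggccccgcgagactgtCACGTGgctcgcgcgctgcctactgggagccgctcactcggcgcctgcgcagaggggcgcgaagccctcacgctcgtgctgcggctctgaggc
Hormad1, chr3:95559427-95559676, plus strand: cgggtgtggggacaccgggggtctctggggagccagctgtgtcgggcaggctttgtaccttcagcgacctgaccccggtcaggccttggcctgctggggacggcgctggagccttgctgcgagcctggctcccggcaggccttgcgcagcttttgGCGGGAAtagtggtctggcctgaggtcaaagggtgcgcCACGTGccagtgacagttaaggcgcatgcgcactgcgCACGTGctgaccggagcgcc
Syce2, chr8:84872008-84872257, plus strand: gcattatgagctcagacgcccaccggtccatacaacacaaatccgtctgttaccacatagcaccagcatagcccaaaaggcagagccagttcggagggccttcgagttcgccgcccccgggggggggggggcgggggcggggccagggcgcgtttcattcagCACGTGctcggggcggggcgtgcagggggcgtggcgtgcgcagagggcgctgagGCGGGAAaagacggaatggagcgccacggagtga
The Sycp1 window, that of the gene that fell most, held 17 CpG dinucleotides and 1 CACGTG, beginning 94 bases before the start. Tex12 held CACGTG at nearly the same place, 93 bases before the start, and the E2F-type site at 145 bases before it. Sycp3 held CACGTG at 64 and 43 bases and the E2F-type site at 147 bases before the start. Hormad1 held CACGTG at 57 and 20 bases before its first start and the E2F-type site at 95. In Syce2, which was not called, CACGTG began 88 bases and the E2F-type site 34 bases before the second of its 2 starts. Sycp2 and Syce1, which fell, held neither motif in these windows, with 7 and 13 CpG dinucleotides. The window of Trip13, which was not called, had the most CpG dinucleotides of the set, 27, and the median of all windows was 6.

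Other genes of the meiotic programme were counted from lists of cohesins, break formation partners, crossover and strand exchange factors, telomere attachment and meiotic entry. Of 42 genes tested, Six6os1 included, 13 fell and 1 rose, beside 7.75% and 6.22% of all genes, and their median difference was -0.13. All 4 meiotic entry genes tested fell, namely Stra8 (-1.77), Meioc (-1.32), Ythdc2 (-0.37) and Rbm46 (-0.24). Of 9 cohesin genes, the meiotic subunits Rec8 (-1.15), Smc1b (-0.68) and Stag3 (-0.42) fell, and Rad21, the kleisin of mitotic cohesin, rose by 0.36 (SE 0.08, limma adjusted p = 0.00867). Of 8 strand exchange genes, Dmc1 (-0.47), Hsf2bp (-0.32) and Brca2 (-0.24) fell. Of 7 crossover genes, the helicase Hfm1 fell (-0.44, limma adjusted p = 0.00948). Of 5 telomere attachment genes, Kash5 (-0.17) and Terb1 (-0.22) fell. The list of break formation partners also held Mad2l1, Mad2l2 and Mad2l1bp. By limma 0 of its 8 genes were called, beside 7.75% and 6.22% of all genes, so this count is not far from the background. Among the 8 was Spo11, which cuts the DNA (-0.18, limma adjusted p = 0.102). Leaving out supplied replicate 4 gave 21 of these genes lower, against 8 when the embryos of title number 1 were left out and 2 when those of number 4 were.

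Of 9 germ cell markers, 8 had a mean above the median gene, with supplied means from 9.48 for Dnd1 to 13.20 for Dazl, and Nanos3 lay below it at 5.62. Markers of supporting, mesenchymal, endothelial and blood cells were low: 26 of 37 were listed, and 0 of the 25 tested had a mean above the median gene. Of these 25, 21 had negative differences, beside 53.4% of all genes tested. By limma 0 of the 25 were called, beside 7.75% of all genes tested called lower and 6.22% called higher. The summed linear level of the 25 ranged from 947 to 1137 in supplied and from 934 to 1029 in withdrawn embryos. With the mean log2 value of these markers as a covariate, Sycp1 was at -1.21 and called (limma adjusted p = 0.00172), and Sycp2 (-0.32, limma adjusted p = 0.116), Syce1 (-0.36, 0.0993), Tex12 (-0.21, 0.242) and Hormad1 (-0.32, 0.102) were not. Of 9 germ cell markers, Ddx4 and Dazl fell and 5 rose, beside 7.75% and 6.22% of all genes tested. Pou5f1 was among those that rose (log2 difference 0.45, SE 0.09, limma adjusted p = 0.00505). The part of these marker differences in the results was not tested beyond the ratios to Ddx4.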

How the data were processed

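The authors deposited 1 table of normalized log2 expression values with a column per embryo, which is the unit used here. The submitters' processing notes name DESeq2 1.10.1, TopHat2 2.0.13, Trim Galore 0.4.0 and FastQC, and the build mm9, without giving roles or order. Not given in the sources used here are the counter, the annotation, any gene filter and how the log2 values were made. Library depth is unknown, so no count test was run and counting error has no interval.

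Genes with a mean of at least 3.32 (log2 of 10) were kept, 12432 of 12516, including all 10 described. Withdrawn and supplied embryos were compared with limma 3.58.1 in R 4.3.3 (variance trend, two-sided, Benjamini-Hochberg adjustment over all genes kept), tested on simulated data. The p values treat embryos as independent replicates, and are too small if littermates are among them. Ratios were tested by exact permutation. Members of lists were matched through RefSeq synonyms, and promoter windows came from RefSeq (GRCm38.p6), a build other than that of the table, so they serve for sequence only.

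All 10 genes, the called genes of the other lists and the 5 genes most like Sycp1 by each of 2 measures (leaving out predicted genes and pseudogenes) were named by rule, as was Sycp1-ps1, and Six6os1, Spo11 and Nanos3 were named after their values were seen. The members and lists were chosen with earlier results of these data known. Alternatives changed the filter, scaling, variance model, weights, threshold, test, covariates and embryos used. Random effects used statmod 1.5.0.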

Additional observations from a re-analysis of the deposited data

How the results depend on the processing

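Sycp1 was called lower in all 30 alternatives, with differences from -1.34 to -0.99 and adjusted p values from 1.98e-07 to 0.0482 (limma, or the exact permutation test where named). The count of 5 genes lower was 2 without a variance trend, with a random effect shared by embryos alike in diet and title number, or at an adjusted p below 0.01. It was 1 with such embryos averaged, with the somatic covariate, with the exact permutation test per gene, or without title number 1 or 4, and 3 without title number 2. It ranged from 2 to 6 without 1 embryo. The calls of Sycp2, Syce1, Tex12 and Hormad1 were lost in 5, 15, 17 and 19 of 29 alternatives, and the direction of each was kept.

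The 1737 genes called were 886 with the random effect, 298 averaged, 363 with the somatic covariate, 558 with the exact test, 444 at the stricter threshold, 729 without title number 1 and 49 without number 4, and from 808 (without supplied replicate 5) to 2315 (without supplied replicate 4) without 1 embryo. Of the genes called, 964 were lower as reported and 795 of 1699 with median centring. The 13 other meiotic genes lower were 5 averaged, 7 with the covariate, 3 with the exact test, 8 at the stricter threshold or without title number 1, 2 without number 4, and from 10 to 21 without 1 embryo.

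Differences near 0 changed sign. Trip13 was at -0.019 with the covariate, -0.025 without title number 1 and -0.012 without number 2. Relative to Ddx4, Syce1 ranged from -0.12 to 0.080 without 1 embryo, and was at -0.0089 and -0.10 without title numbers 3 and 4. Hormad1 ranged from -0.014 to 0.114 without 1 embryo and was at -0.041 without number 4, and Sycp3 was at -0.011 without number 1. The cause was not tested.

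With the title number as a replicate block, 5 of the 10 genes, 14 other meiotic genes and 2062 genes in all were called. Between the diets, the mean deviations of same-numbered embryos from their diet's mean correlated across genes at r = 0.27, -0.10, 0.18 and -0.17 for numbers 1 to 4. Not every number correlated best with itself, so the numbers were not taken to pair the embryos. Unknown depth limits the reading of low values such as those of Syce3.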

Other observations

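Outside the 10 genes, the named genes whose values followed those of Sycp1 most closely over the 12 embryos were Ulk2 (Pearson r = 0.98, Spearman rho = 0.98), an autophagy kinase, Hdac6 (0.98 and 0.99), a cytoplasmic deacetylase, Rapgefl1 (0.97 and 0.94), Satb1 (0.97 and 0.97), a chromatin organiser, and Zfp238 (0.97 and 0.98), a zinc finger repressor. All 5 fell in withdrawn embryos, by 0.46, 0.54, 0.38, 0.45 and 0.75 on the log2 scale. These 5 genes were picked for following Sycp1 across both diets, and the diets did not overlap for Sycp1. Their fall therefore follows from the choice and is not a further result. With the mean of each diet removed first, which leaves the differences between embryos of 1 diet, the closest were Slc30a4 (r = 0.98), a zinc transporter, Tdrd7 (0.97), a Tudor domain protein of germ granules, Stra8 (0.97), Mfsd6 (0.95) and Ccnb1ip1 (0.95), a ubiquitin ligase gene of the crossover list. These values describe 12 libraries that share scaling and preparation, and the genes were picked as the highest of all tested, so no p is given.

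Of the 45 pairs among the 10 genes, 39 had a positive r with the diet means removed. Sycp1 with Tex12 (0.88), Sycp3 with Tex12 (0.86) and Sycp1 with Sycp3 (0.83) were the highest, and the negative values were those of Syce2 or Trip13 with other genes.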
